A study of Drosophila melanogaster with 6 samples.

Results

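The genes described here are 10 genes of Drosophila haemocytes, the insect blood cells: the class C scavenger receptors Sr-CI and Sr-CII, the surface protein gene He, the clotting protein gene Hml, the phagocytosis receptors NimC1, eater, crq and drpr, and the prophenoloxidases PPO1 and PPO3. Their probe sets were found by gene name, through the array annotation. Each was represented by 1 probe set that the annotation assigned to it alone, which gives 10 of the 11982 genes measured on the array. He and Hml are known as haemocyte surface and clotting proteins and not as phagocytosis receptors.

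RNA came from S2 cells, a line from late embryos with features of macrophage-like blood cells, on 6 Affymetrix arrays in 2 groups of 3. S2 control cells are labelled wild type. The other group is labelled dBigH1 induced, and the growth notes describe dBigH1::FLAG cells kept under 0.3 mg/ml Hygromycin B, a selection that was left out during the experiment itself. Both groups received 1 mM copper sulphate for 24 h, so neither shows the level without copper. dBigH1 is the linker histone of the early embryo, and the series asks what it does to active chromatin. The promoter driving the transgene and the number of clones behind the line are not given by the labels, and differences between the lines cannot be told apart from an effect of dBigH1.

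Haemocytes take up bacteria and dying cells through several families of surface receptors. NimC1 and eater carry repeats of EGF-like (NIM) domains and bind bacteria, drpr is the fly relative of worm CED-1 and takes up apoptotic cells and neuronal debris, and crq is a relative of mammalian CD36 that also recognises apoptotic cells. Scavenger receptor Sr-CI binds bacteria, while prophenoloxidases are the zymogens of the enzymes that make melanin. PPO1 is known from crystal cells, and PPO3 from lamellocytes, the flat cells that encapsulate parasites. Plasmatocytes, the phagocytes of the fly, are the cells in which most of the other genes are known.

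The arrays and labels were checked first. BigH1 read 4.86, 5.42 and 5.30 on the S2 control arrays and 13.47, 13.47 and 13.43 on the induced arrays (log2 signal), in the direction of the labels. Array medians lay between 6.32 and 6.35, and no array stood apart from the rest of its group, with Pearson's r across probe sets of at least 0.998 within groups and 0.993 between groups. The 5′ minus 3′ signal of the platform's Act5C control was -1.26 ± 0.0869 (SD, n = 3) in S2 control and -1.79 ± 0.0778 (n = 3) in induced cells, while the other 5 control series differed by -0.08 to 0.19. The part of this difference in the results was not tested. In these bulk samples, fewer cells that make a transcript and less of it per cell cannot be told apart.

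Of the 10 genes, 4 fell in induced cells (PPO3, Sr-CI, He and NimC1), 1 rose (eater) and 5 did not pass (Sr-CII, Hml, crq, drpr and PPO1). "Rose" and "fell" stand for an adjusted p under 0.05 in limma's moderated test across all 18769 probe sets. Among all genes, 30.5% changed, 14.5% rose and 16.0% fell. For 6 of the 10 genes every induced array lay on one side of every control array, which held for 45.4% of all genes. The median log2 change was -0.12 over the 10 genes and -0.01 over all genes, and the median size without sign was 0.18 and 0.11. PPO3 and Sr-CI fell by at least 2-fold, as did 1.11% of all genes.

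**Figure D1:**
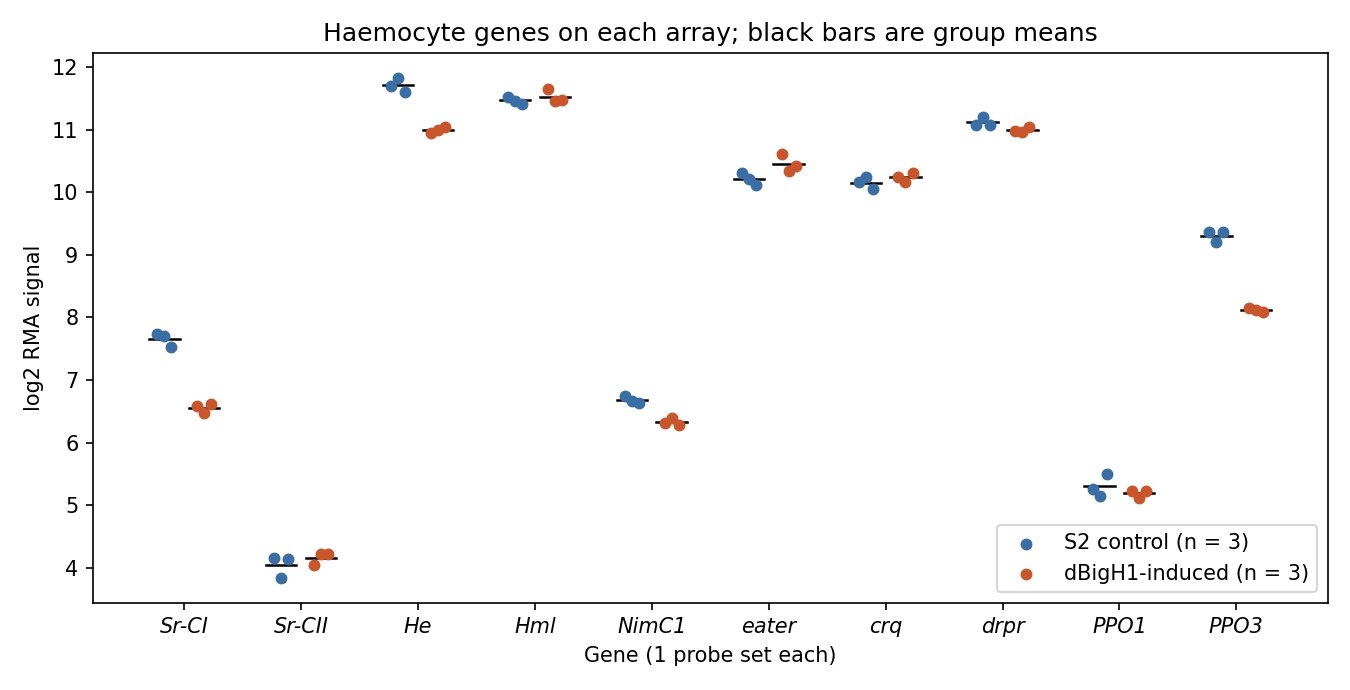
Log2 RMA signal (vertical axis) of the 10 haemocyte genes (horizontal axis) on each of the 3 S2 control and 3 dBigH1-induced arrays, with black bars at the group means. The induced arrays of PPO3, Sr-CI, He and NimC1 lie below all of their S2 control arrays, while those of Hml, crq, Sr-CII and PPO1 overlap them. Heights of different genes also depend on their probes and are not compared.

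Among the scavenger receptors, Sr-CI read 7.73, 7.70 and 7.53 in S2 control and 6.59, 6.48 and 6.61 in induced cells. Every induced array lay below every control array, with a gap of 0.92 between the nearest values. The signal fell by 1.09 on the log2 scale, which is 2.13-fold (SE 0.07, 95% interval -1.24 to -0.94, adjusted p = 3.004e-06 in limma). Its probe set outshone 62.4% of the array's probe sets in control cells and 53.0% in induced cells, close to the median brightness in the latter. Sr-CII, its paralogue, was dim in both groups. It read 4.15, 3.84 and 4.13 in S2 control and 4.04, 4.21 and 4.22 in induced cells, with overlapping groups and a log2 change of 0.12 (95% interval -0.08 to 0.32, adjusted p = 0.395). A probe set this close to the floor (brighter than 9.16% and 11.4% of probe sets) compresses any change, so the interval limits the signal and not the RNA. The other class C receptors on the array, Sr-CIII and Sr-CIV, stood at log2 changes of -0.03 (adjusted p = 0.777) and -0.08 (adjusted p = 0.419). Sr-CIII is the gene next to Sr-CI in RefSeq's gene order, and its signal was dim, at 5.28 and 5.25.

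He encodes Hemese, a transmembrane glycoprotein on the surface of larval haemocytes. Its signal was 11.70, 11.83 and 11.61 in S2 control and 10.95, 11.00 and 11.05 in induced cells, again without overlap. The log2 change of -0.71 (SE 0.07, 1.64-fold, adjusted p = 4.378e-05) took the probe set from the 94.5 to the 90.1 percentile of brightness, so He was still bright after the fall. Hml encodes hemolectin, a large clotting protein and a usual marker of plasmatocytes. It read 11.53, 11.46 and 11.42 in S2 control and 11.66, 11.46 and 11.47 in induced cells, a log2 change of 0.06 (95% interval -0.09 to 0.21, adjusted p = 0.567). Of the induced arrays, 1 lay above all control arrays and the others lay among them.

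The receptors of the Nimrod type went different ways. NimC1 read 6.75, 6.66 and 6.64 in S2 control and 6.32, 6.40 and 6.28 in induced cells. The groups did not overlap, and the signal fell by 0.35 (SE 0.06, 1.27-fold, adjusted p = 0.00149) from a level near the median brightness. For eater, the values were 10.31, 10.22 and 10.12 in S2 control and 10.62, 10.34 and 10.43 in induced cells. Its groups were separated only narrowly, with the lowest induced array 0.02 above the highest control array. The gene rose by 0.24 (SE 0.08, 95% interval 0.07 to 0.42, adjusted p = 0.0472), just inside the threshold. Without induced replicate 1 the change was 0.17 (adjusted p = 0.153). The call was also lost without S2 control replicate 2, S2 control replicate 3 or induced replicate 3 (adjusted p = 0.102, 0.148 and 0.0852), and in 7 of 14 alternatives in all. Induced replicate 1 was the highest array for both eater and Hml.

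The receptors known for apoptotic cells, crq and drpr, showed smaller differences. The values of crq were 10.16, 10.25 and 10.06 in S2 control and 10.24, 10.17 and 10.31 in induced cells, with overlapping groups and a log2 change of 0.09 (95% interval -0.06 to 0.23, adjusted p = 0.396). Its probe set is of a kind whose probes can match several transcripts, and crq overlaps the growth regulator gene ex in RefSeq's table, which stood at 0.04 (adjusted p = 0.828). The values of drpr were 11.08, 11.20 and 11.08 in S2 control and 10.98, 10.96 and 11.05 in induced cells. All induced arrays lay below all control arrays, but the difference of -0.13 (95% interval -0.25 to 0.00, adjusted p = 0.143) did not pass. It passed with trended robust moderation (adjusted p = 0.0440). The intervals of crq and drpr hold no change larger than 0.25 on the log2 scale.

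Among the prophenoloxidases, PPO3 read 9.37, 9.21 and 9.36 in S2 control and 8.15, 8.12 and 8.09 in induced cells, the tightest induced values of the 10 genes (SD 0.0298). It fell by 1.19 on the log2 scale, or 2.29-fold (SE 0.06, 95% interval -1.32 to -1.06, adjusted p = 6.068e-07). In the order of all 11982 genes by signed change, PPO3 stood at the 0.776 percentile, Sr-CI at 0.910 and He at 2.28. PPO1 was dim and read 5.26, 5.14 and 5.50 in S2 control and 5.22, 5.11 and 5.23 in induced cells, with overlap and a log2 change of -0.11 (95% interval -0.30 to 0.08, adjusted p = 0.408). PPO2, the other crystal cell enzyme, stood at 6.66 and 6.71 and did not pass (adjusted p = 0.764).

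**Figure D2:**
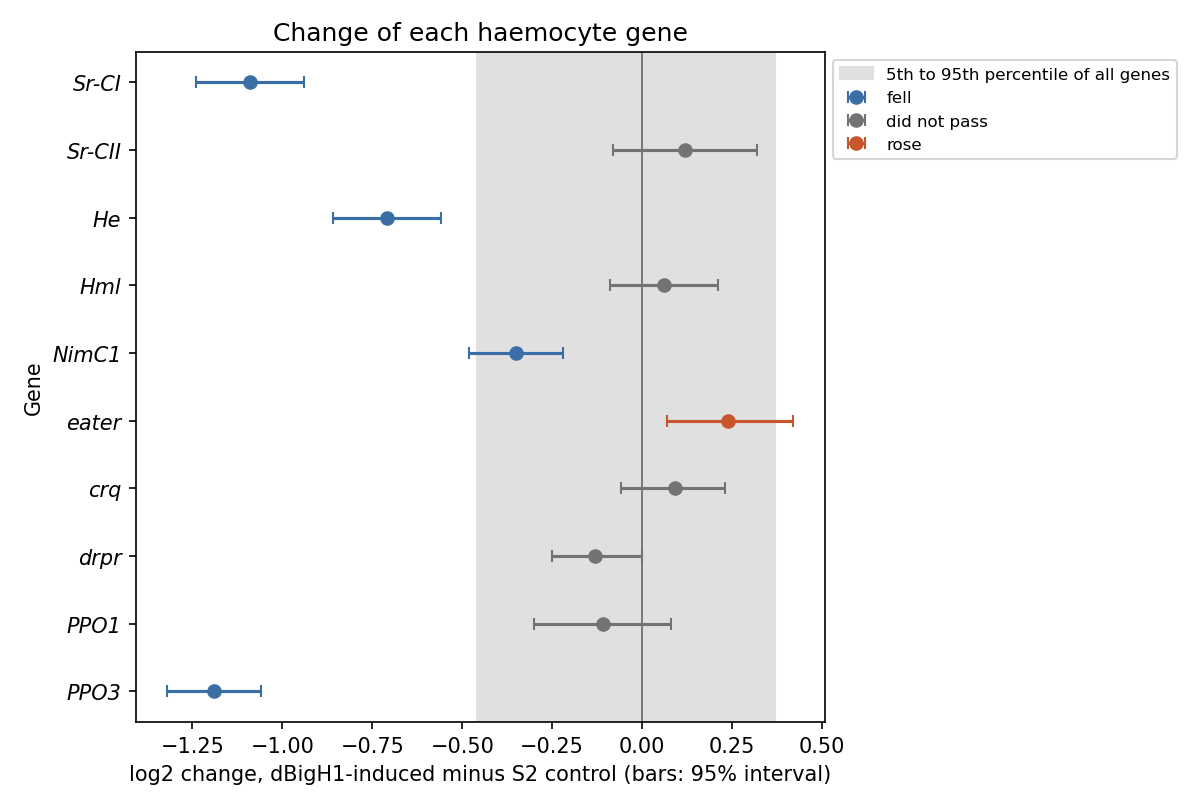
Log2 change, dBigH1-induced minus S2 control (horizontal axis), of each of the 10 genes (vertical axis) with its 95% interval, over a grey band from the 5th to the 95th percentile of all genes (-0.46 to 0.37). PPO3, Sr-CI and He lie below the band, at -1.19, -1.09 and -0.71, and the other 7 genes have their estimates inside it.

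He and NimC1 are neighbours in RefSeq's gene order, inside a run of 10 genes that starts with NimA and ends with NimC2 and holds many genes of the Nimrod family. This run was chosen after its values were seen, so its counts are a description. Within it 7 genes fell, 1 rose and 2 did not pass, while 16.0% of all genes fell, and in each of the 10 the induced arrays lay on one side of the control arrays, as in 45.4% of all genes. The median log2 change of the run was -0.38. The run does not hold the whole Nimrod family. Outside it, NimC3 and NimC4 stood at 0.05 and -0.11 and did not pass (adjusted p = 0.86 and 0.276 in limma). For both genes the induced arrays overlapped the control arrays. The cytochrome P450 gene Cyp28a5, which lies between NimC1 and NimC2 and is no Nimrod gene, fell most, from 10.39 to 8.90 (log2 change -1.49, SE 0.07, adjusted p = 3.212e-07). NimB1 fell by 0.54, NimB2 fell by 0.45 and NimC2 fell by 0.42. NimB5, a secreted member known to adjust haemocyte number, fell by 0.25. NimB4, a secreted member known to help clear apoptotic cells, was the exception and rose from 6.70 to 7.24 (0.54, SE 0.10, adjusted p = 0.00278). NimA and NimB3 stood at -0.06 and -0.16 and did not pass (adjusted p = 0.396 and 0.0758). The groups of NimA were only 0.03 apart, and its dimmer probe set stood at 0.02 (adjusted p = 0.825 in limma). In RefSeq's table NimB1 overlaps NimB2, NimB5 overlaps He, and NimC2 overlaps rk, so these pairs may share probes. With 1 array left out in turn, 6 or 7 genes of the run fell and 1 rose. NimB5 did not pass without S2 control replicate 1, S2 control replicate 3 or induced replicate 1, nor did NimC2 without S2 control replicate 2 or induced replicate 3.

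**Figure D3:**
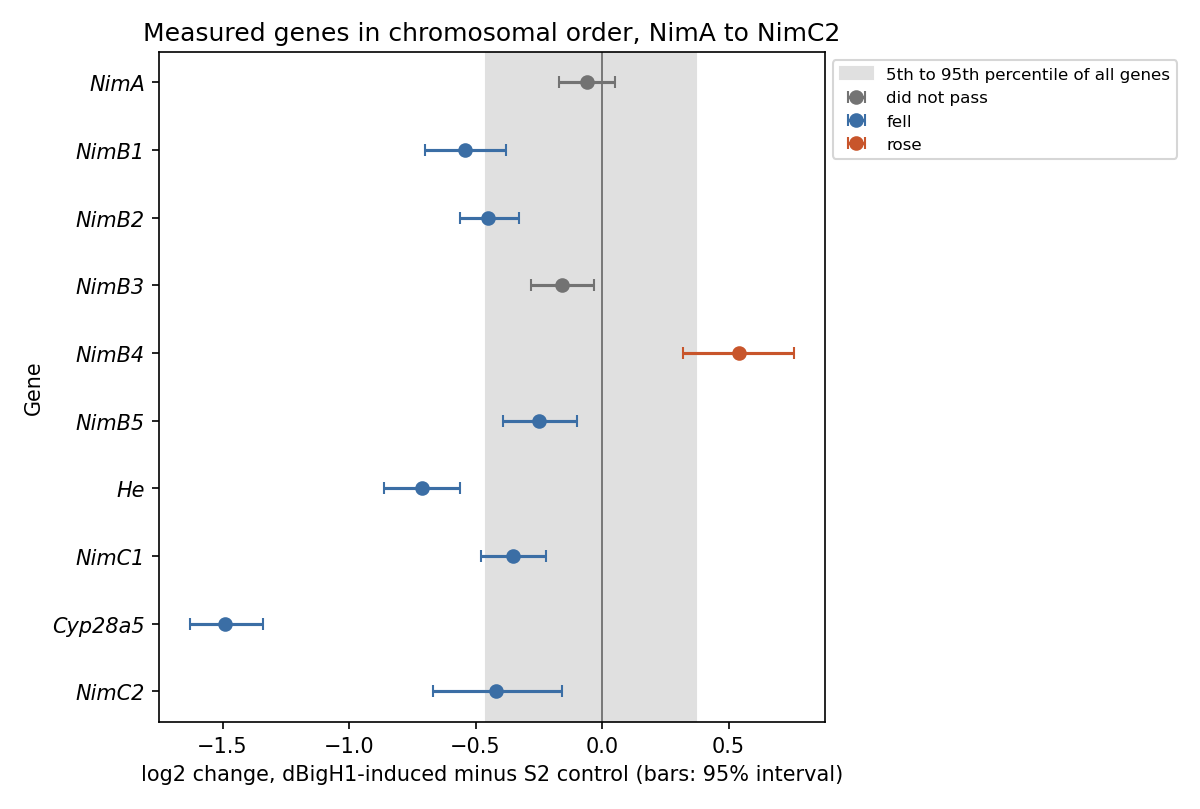
Log2 change with 95% interval (horizontal axis) of the 10 measured genes from NimA to NimC2, in chromosomal order from top to bottom, over the band from the 5th to the 95th percentile of all genes. He, NimC1 and Cyp28a5 sit next to each other and all fell, and NimB4 (0.54) is the 1 gene to the right of 0.

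For all 10 members, the nearest measured gene on each side gave 18 neighbours that are not members. Of these, 2 rose, 4 fell and 12 did not pass, or 33.3% changed against 30.5% of all genes. Besides Cyp28a5 and NimB5, CG8858, with 4 genes between it and Sr-CII, fell by 0.32, and Jhbp11 beside eater fell by 0.52. The tetraspanin gene Tsp68C beside Hml rose by 0.41, a call lost without S2 control replicate 1 or induced replicate 2, and shv beside crq rose by 0.29. The measured genes beside Sr-CI and PPO3, the members that fell most, did not pass. They were CG2955 (0.10, adjusted p = 0.292) and Sr-CIII beside Sr-CI, and CG9890 (0.06, adjusted p = 0.508) and l(2)k09913 (-0.00, adjusted p = 0.988) beside PPO3.

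Paralogues of the members were compared next. Of 22 measured paralogues, 2 rose and 8 fell while 12 did not pass (45.5% changed, against 30.5% of all genes). Their median change was -0.13, against -0.01 for all genes. Among 9 further Nimrod genes 1 rose and 4 fell, all of them in the run described above, and NimC4, the receptor for apoptotic cells also called simu, stood at -0.11 (adjusted p = 0.276). Among 10 relatives of crq in the CD36 family 1 rose and 4 fell. CG3829 fell most, from 8.29 to 7.36 (log2 change -0.93, SE 0.06, adjusted p = 2.868e-06), although its dimmer probe set showed only -0.23. The gene emp fell by 0.57 (SE 0.10), and pes, which S2 cells are known to use to take up mycobacteria, fell by 0.22 (SE 0.06). For pes the adjusted p was 0.0147, and the call was lost without S2 control replicate 1 or induced replicate 3. CG7227, at a dim 3.98, fell by 0.17 (adjusted p = 0.0412) but did not pass in 8 of 13 alternatives. Snmp1, known from pheromone-sensing neurons, rose by 0.44 (SE 0.09).

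Opsonins and other recognition proteins bind targets beside the receptors above. Of 11 measured, 2 rose and 6 fell (72.7% changed, against 30.5% of all genes, median -0.20), and 5 changed without S2 control replicate 2 or induced replicate 2 in place of 8. Dscam1, a receptor of many splice forms, fell by 0.36 (SE 0.07), while its dimmer probe set stood at -0.01. The integrin subunit gene Itgbn, known for uptake of apoptotic cells and bacteria, fell by 0.32 (SE 0.06), and the thioester protein gene Tep4 fell by 0.20 (SE 0.05). Tep4 did not pass without induced replicate 2. GNBP3, which recognises fungal glucans, and the integrin subunit gene if rose by 0.62 (SE 0.06) and 0.51 (SE 0.08).

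The machinery that acts behind the receptors was followed in a pair of lists, against 30.5% of all genes that changed. In the engulfment pathway of drpr, 2 of 17 measured genes rose, 2 fell and 13 did not pass (23.5% changed, median 0.02). These counts take each gene by its brightest probe set, which for kay stood at -0.08 and did not pass. The dimmer probe set of kay fell by 0.66, from 10.63 to 9.97 (adjusted p = 8.02e-05 in limma). Ced-12, which with mbc activates Rac, rose by 0.30 (SE 0.05, adjusted p = 0.00130), and the cullin gene Cul1 rose by 0.22. The F-box gene pall, known for phagocytosis of apoptotic cells, fell by 0.24, and the adaptor gene drk fell by 0.16, a call lost in 8 of 14 alternatives. For pall the call was lost without induced replicate 2, induced replicate 3 or S2 control replicate 3. The count of 4 was 2 without induced replicate 2 or 3, and 9 with trended robust moderation. Among 26 genes of the phagosome and actin machinery 4 rose, 2 fell and 20 did not pass (23.1%, median -0.00). SCAR, an activator of actin branching, rose by 0.34 (SE 0.05), and its partner in that complex, Abi, fell by 0.23 (SE 0.05). The coatomer genes zetaCOP and epsilonCOP rose by 0.28 and 0.20, and the capping protein gene cpb fell by 0.17. Here 3 genes changed without induced replicate 2 and 2 without induced replicate 3, where zetaCOP, epsilonCOP and cpb were among those lost. The call of epsilonCOP was also lost without S2 control replicate 1 or 2, and that of cpb without any 1 of the induced replicates or without S2 control replicate 3. Whether these lists differ from other genes was not tested.

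Melanisation and clotting genes, the setting in which prophenoloxidases and Hml act, were listed separately. Of 18 measured, 2 rose, 9 fell and 7 did not pass (61.1% changed, against 30.5% of all genes, median -0.21). Spn77Ba, a serpin known to restrain melanisation in the trachea, fell by 1.01 (SE 0.06, adjusted p = 1.551e-06). The serpin gene Spn28Dc, also known to restrain phenoloxidase, went the other way and rose by 0.96 (SE 0.07, adjusted p = 1.256e-05). The protease gene grass fell by 0.60 (SE 0.06), and the clotting protein gene fon fell by 0.52 (SE 0.05). The acetyltransferase gene speck, which acts in pigmentation, rose by 0.41 (SE 0.08).

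**Figure D4:**
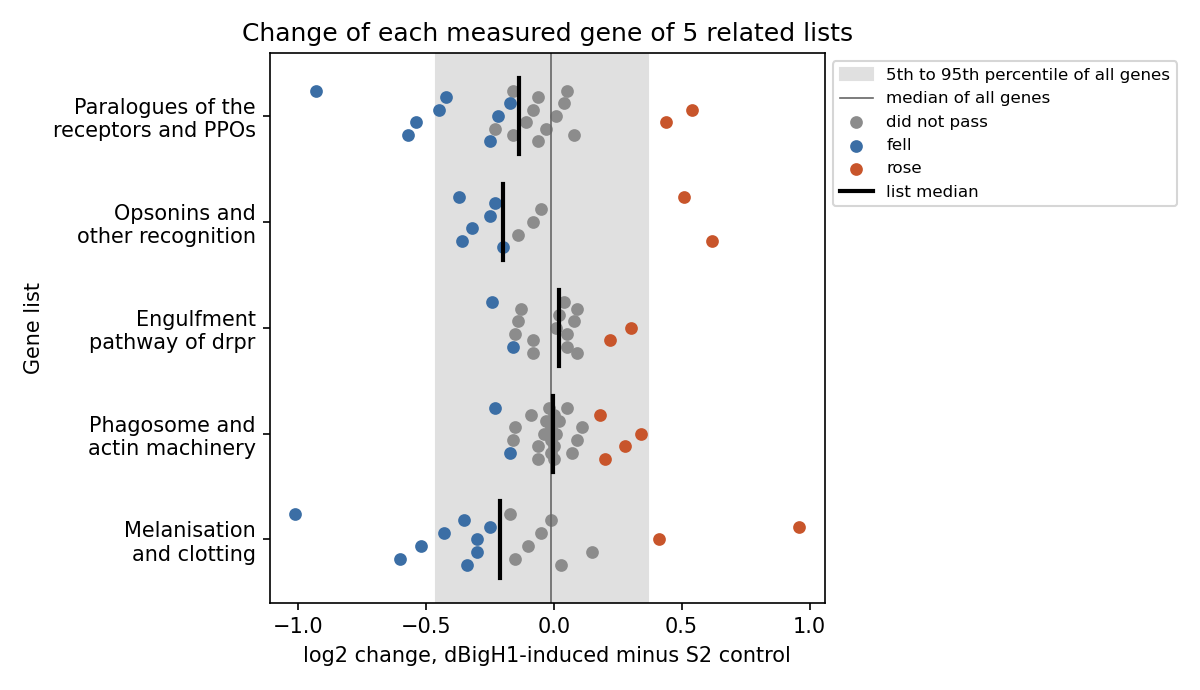
Log2 change (horizontal axis) of each measured gene in 5 related lists (vertical axis), coloured by its call, with a black bar at each list's median and a grey band from the 5th to the 95th percentile of all genes. The medians of paralogues, opsonins and melanisation genes lie at -0.13, -0.20 and -0.21, and those of the engulfment and phagosome lists at 0.02 and -0.00.

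Markers of blood cells and other tissues give the setting of these changes. The 17 plasmatocyte markers include 6 of the 10 genes, and all 17 were above the median brightness. In this list 9 rose and 5 fell, while 3 did not pass (82.4% changed, against 30.5% of all genes). The mean log2 level of the list was 10.29 to 10.37 over the S2 control arrays and 10.41 to 10.45 over the induced arrays. Of the 11 that are not among the 10 genes, 8 rose, 2 fell and 1 did not pass. Mmp2 is counted as a fall by its brightest probe set (-0.20), but its dimmer probe set rose by 0.32 (adjusted p = 0.0397 in limma). Pxn rose by 0.65, glob1 by 0.55 and Col4a1 by 0.40, whereas He, Sr-CI and NimC1 fell. Of 10 lamellocyte markers, PPO3 among them, 7 fell and 3 did not pass (70.0%, against 16.0% of all genes that fell). Their mean level was 9.41 to 9.45 in S2 control and 8.86 to 8.88 in induced cells, and ItgaPS4 fell by 1.75 (SE 0.12). The integrin subunit gene mys, which fell by 0.23, is counted both here and among the opsonins and other recognition proteins. The lamellocyte marker atilla stood at 6.18 and 6.06, just below the median brightness, and did not pass (-0.12, adjusted p = 0.143 in limma). Of 8 crystal cell markers, 5 were above the median brightness, 2 fell and 6 did not pass (25.0% changed). Naam fell by 0.59 from 10.77 and Men by 0.35 from 11.91, both bright signals. The gene lz, for the factor that defines these cells, was at 3.59 and 3.51, among the dimmest signals. Of 7 fat body genes 1 rose, and the mean level of the list was 4.96 to 5.10 in S2 control and 5.03 to 5.13 in induced cells. The 6 neuron markers, of which 5 were above the median brightness, stood between -0.07 and 0.06 by their brightest probe sets and did not pass. A dimmer probe set of brp fell by 0.34 (adjusted p = 0.0103 in limma), while its other dimmer ones did not pass. Of 6 epithelium markers 1 rose and 1 fell. The part of these cell type markers in the changes of PPO3, Sr-CI, He and NimC1 was not tested.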

How the data were processed

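The deposited table holds a log2 signal for each probe set, computed with RMA per the submitters' processing notes. RMA subtracts background, equalises arrays and combines probes, so a shift shared by every transcript cannot be seen and dim probe sets are compressed. Its version and the genome build are not named in the labels. Per the labels' protocols, RNA (25 ng a sample) was amplified isothermally. Replicates are numbered but not described as separate cultures, so p-values cover the spread between samples, which may be technical.

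Of 18952 probe sets, 183 platform controls were left out and 18769 entered the tests, made in R 4.3.3 with limma 3.58.1. The fit used lmFit and eBayes without trend, with group alone in a two-sided test, and Benjamini-Hochberg adjustment ran over all tested probe sets. All adjusted p-values come from limma. The prior SD of 0.0754 had 5.50 degrees of freedom, and 4 residual ones remained. The platform annotation named 1 gene for 13647 probe sets, several for 402 and none for 4720. Symbols of 13544 were updated through RefSeq's gene table (Release 6), used here for names, gene order and overlaps only. A gene was represented by its brightest probe set. With 3 against 3 arrays an exact permutation test reaches at best p = 0.1, and none was used. Arrays of this design were also simulated (18769 probe sets). Of the probe sets changed by 0.25, 5 of 67 were recovered, with 62 of 67 changed by 0.5 and 66 of 66 changed by 1. There were 11 false calls among 144. Far fewer probe sets were changed there than were called in the data, where 2643 rose and 2480 fell. The same adjusted p then asks for a smaller unadjusted p, so these shares are not the recovery in the data.

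The members and lists were chosen with earlier results of these data known. The named genes are all members, BigH1, passing paralogues and neighbours, and up to 3 passing genes per direction of each other list. PPO2, Sr-CIII, Sr-CIV, NimA, NimB3, NimC3, NimC4, ex, kay, the markers and the neighbours that did not pass were named after their values were seen. Protein and promoter sequences were not used here.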

Additional observations from a re-analysis of the deposited data

How the results depend on the processing

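The settings tried were 3 other scalings, removal of dim probe sets, array weights, trended robust moderation, a replicate block, 1 array left out at a time, and averaging the probe sets of a gene. PPO3, Sr-CI, He and NimC1 fell in all 14, with log2 changes of -1.24 to -1.17, -1.15 to -1.05, -0.77 to -0.65 and -0.38 to -0.31. The call of eater was lost with ribosomal protein centring (0.22, adjusted p = 0.0747), a further quantile normalisation (0.25, 0.0549), array weights (0.23, 0.0632) and 4 of the arrays left out in turn (0.17 to 0.31 over all 6), which left 0 members that rose, as did a threshold of 0.01. Without induced replicate 1, Hml stood at -0.0037 (-0.0037 to 0.09 over all 6). With trended robust moderation drpr passed (-0.13), and 9 genes of the engulfment list changed. The filter on dim probe sets removed Sr-CII and PPO1 and left 0 fat body genes that changed. With 1 array left out, changed genes numbered 5 to 7 for opsonins, 2 to 3 for the engulfment pathway, 2 to 5 for phagosome genes and 0 to 2 for fat body, and 0 to 1 members rose. At 0.01, 1656 probe sets rose and 1613 fell. Of 41 other named genes, 29 kept their call in every alternative run, 12 lost it in some and 0 changed direction. Replicate numbers did not pair the arrays (r of deviations 0.0384, -0.0983 and 0.0135 for equal numbers). With the replicate block 2399 probe sets rose and 2242 fell, the same 4 members fell and eater rose, and cpb, drk and CG7227 did not pass (adjusted p = 0.0553, 0.0822 and 0.0708). The number of arrays limits every value, and Sr-CII and PPO1 are limited by dim signals.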

Other observations

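Genes that regulate blood cells and are not among the 10 showed changes in both directions. Of 10 measured, 3 rose, 3 fell and 4 did not pass (60.0% changed, against 30.5% of all genes). The genes that rose are also in the list of plasmatocyte markers above, so their rises are counted in both lists. The GATA factor gene srp, which the blood lineage needs, rose from a log2 signal of 9.87 to 10.36 (0.50, SE 0.10, adjusted p = 0.00431 in limma), and its cofactor gene ush rose by 0.55 (SE 0.06). The receptor tyrosine kinase gene Pvr, which keeps haemocytes alive, rose by 0.41 (SE 0.05), while the genes of its ligands, Pvf2 and Pvf3, fell by 0.69 (SE 0.07) and fell by 0.77 (SE 0.07). The other 3 probe sets of Pvf3 were dimmer and stood between -0.24 and 0.02. The gene gcm2 fell by 0.21 from a dim signal of 5.71 (adjusted p = 0.0222), a call lost without S2 control replicate 2 or 3 or induced replicate 1 or 2.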
